A study of Mus musculus with 92 samples.

Results

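The comparison was of the left tibialis anterior of wild type mice at 100 days of age with that of wild type mice at 70 days. The arrays were chosen by their titles, as the muscle arrays of wild type animals, and they numbered 15 of the 92 in the series, with 7 at 100 days and 8 at 70 days. The wild type animals were littermates of B6.Cg-Tg(G93A-SOD1)1Gur/J mice, a line with a human superoxide dismutase 1 transgene that carries the G93A mutation and serves as a model of amyotrophic lateral sclerosis. The G93A-SOD1 muscle, with 8 arrays at 70 days and 7 at 100 days, is described below only for comparison. Its arrays were normalized, filtered and fitted together with those of wild type, so the wild type p-values draw on all 30 muscle arrays. Expression was measured with Illumina bead arrays, in which a probe's signal intensity stands for the amount of its transcript, and the values below are background-corrected, quantile-normalized log2 intensities. The sources used here do not say whether each array came from a separate animal, nor the sex of the animals. The p-values therefore measure the spread between arrays within the muscle groups of both genotypes, which may be technical.

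The tibialis anterior is a muscle of the lower leg that lifts the foot, and in mice it consists mostly of fast fibres. Between these ages a mouse passes from young adulthood to maturity, when the addition of nuclei to growing fibres has largely ended and the basement membranes, nerve supply and fuel use of the fibres are those of an adult. A whole muscle also holds fibroblasts, macrophages, mast cells, vessels, nerve branches and tendon, so that a transcript of 1 of these cell types can differ through the number of its cells or through the RNA per cell, which cannot be told apart in these samples.

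The labelled tissue was checked against defining genes. All 13 genes on the array of the skeletal muscle identity list (among them Acta1, Ckm and Ttn) and all 12 of the fast fibre list were detected on every wild type array. A probe counted as detected on an array when its deposited detection p-value was under 0.05. At 70 days an array detected 9340 ± 510 probes (SD, n = 8), compared with 9401 ± 809 (SD, n = 7) in the older muscle, and the difference of 61.6 probes was within the spread of the arrays (exact permutation test, two-sided, p = 0.859). The 3 arrays with over 10000 detected probes were replicate 3 of 70 days and replicates 1 and 2 of 100 days. Precision is limited by how many arrays each age has.

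No gene passed the test of age in wild type muscle. Of 9089 genes, 0 (0%) had an adjusted p under 0.05 in limma, and the smallest adjusted p was 0.112. At an unadjusted p under 0.05 limma counted 1074 genes, 11.8% of those tested, against the 454 that an even spread of p-values would give. With each array centred on its median in place of quantile normalization the count was 250, below that number, with 128 genes higher and 122 lower. Of the 1074 genes counted with quantile normalization, 472 were higher at 100 days (5.19%) and 602 were lower (6.62%). The median difference over all genes was -0.04 on the log2 scale, 40.3% of genes lay above 0, and the middle 90% lay between -0.34 and 0.35. Apart from leaving out single arrays, 13 other settings were tried, and 11 of them also called 0 genes in limma. The exceptions were the wild type arrays normalized and fitted on their own, with 36 genes called, and weights for the quality of each array, with 48. Between them these settings called 66 genes, of which 18 were called under both. In the histogram of limma p-values the bins under 0.25 lay above the even count, most of all at small p. All bins from 0.25 upward lay below it, the lowest with 349 genes.

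**Figure D1:**
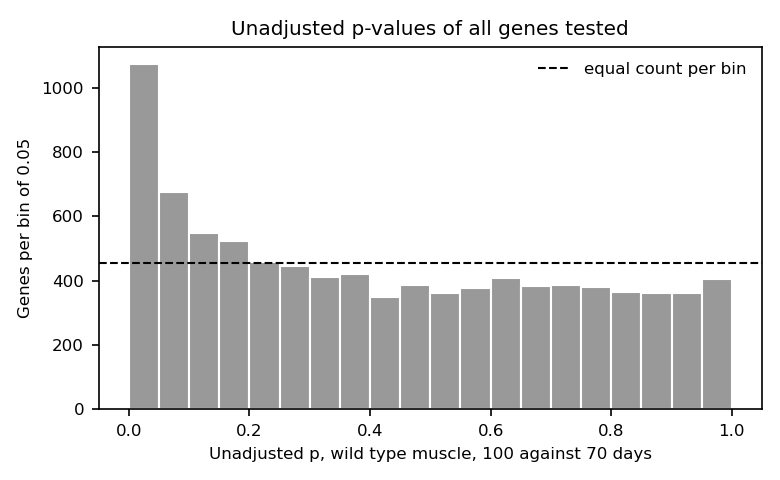
Unadjusted p-values of limma for 9089 genes, wild type muscle at 100 against 70 days. The x axis is the p-value in bins of 0.05, the y axis the number of genes in a bin, and the dashed line the 454 genes each bin would hold if p-values were spread evenly. The first bin holds 1074 genes and the second 677.

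The genes described first are the 12 of smallest p in each direction. None passed the test, so their values are given as measured differences. The groups did not overlap in 4 of the 12 higher genes and in 2 of the 12 lower genes. Among all genes, the 7 arrays of 100 days lay above all 8 of 70 days in 19 genes (0.209%) and below all 8 in 11 genes (0.121%). As these genes were picked for their small p-values, their separation is a description.

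Among the higher genes were Pdp1 and G6pc3, enzymes of fuel use, and a carbonic anhydrase. Pdp1 encodes the catalytic subunit of pyruvate dehydrogenase phosphatase, which switches on the entry of pyruvate into the citric acid cycle. Its log2 level ranged from 6.22 to 8.00 at 70 days (median 7.55) and from 8.06 to 8.60 at 100 days (median 8.39). Every array of 100 days lay above every array of 70 days, and the arrays of 70 days were spread over a wide range. The difference was 1.03 ± 0.24 (SE), with an adjusted p of 0.127 in limma. G6pc3, a glucose-6-phosphatase found in most tissues, ranged from 7.90 to 8.33 at 70 days (median 8.18) and from 8.35 to 8.68 at 100 days (median 8.59), again with no overlap. It was higher by 0.42 ± 0.10 (SE, adjusted p = 0.142), and its second probe was higher by 0.32. Car2, carbonic anhydrase 2, ranged from 4.66 to 5.54 at 70 days (median 5.14) and from 5.31 to 6.51 at 100 days (median 5.69). Its difference was 0.65 ± 0.16 (SE, adjusted p = 0.142), 5 of the 7 arrays of 100 days lay above all of 70 days, and it was detected on 4 of 8 arrays at 70 days and on 6 of 7 at 100 days.

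Genes of membrane traffic, translation and DNA replication were also in the higher group. Rab18, a small GTPase found on lipid droplets and the endoplasmic reticulum, ranged from 9.13 to 10.04 at 70 days (median 9.78) and from 10.06 to 10.45 at 100 days (median 10.16). The arrays of the ages did not overlap, though the highest of 70 days came close to the lowest of 100 days, and the difference was 0.49 ± 0.12 (SE, adjusted p = 0.142). Sec22a, of the vesicle traffic between endoplasmic reticulum and Golgi, was higher by 0.46 ± 0.11 (SE, adjusted p = 0.142), with 4 of 7 arrays above all of 70 days. Rpl29, a protein of the large ribosomal subunit, ranged from 8.02 to 8.996 at 70 days and from 8.85 to 9.15 at 100 days, and 2 of 7 arrays lay above all of 70 days (difference 0.54 ± 0.13, SE, adjusted p = 0.142). The 100 day arrays of Rpl29 lay close together and the 70 day arrays did not. Pole3, a small subunit of DNA polymerase epsilon, differed by 0.49 ± 0.12 (SE, adjusted p = 0.142). Cers2, the ceramide synthase that makes ceramides with very long acyl chains, ranged from 6.31 to 7.35 at 70 days and from 7.14 to 7.68 at 100 days, and differed by 0.62 ± 0.14 (SE, adjusted p = 0.127). A second, dimmer probe of Cers2 differed by -0.01, so the probes of this gene disagree.

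A pair of the higher genes lay below detection at 70 days. Mmrn1, multimerin 1, a protein of platelets and endothelium, was detected on 0 of 8 arrays at 70 days and on 6 of 7 at 100 days. Its levels ranged from 4.75 to 5.18 at 70 days and from 4.97 to 5.93 at 100 days, with a fitted difference of 0.56 ± 0.11 (SE) and the smallest adjusted p of all genes, 0.112. Rtn1, reticulon 1, a protein of the endoplasmic reticulum known from neurons, was also detected on 0 of 8 and 6 of 7 arrays, with a median of 4.75 at 70 days and of 5.65 at 100 days and a single array at 7.40. Where no array detects a gene its level is only a bound. Set against the dimmest detected probe of each array of 70 days, the mean of 100 days was at least 1.23-fold higher for Mmrn1 and at least 1.42-fold higher for Rtn1. Both bounds rest on the mean of all 7 arrays of 100 days. The fitted difference of Rtn1 was 0.98, and 0.71 without replicate 7 of 100 days. Mmrn1 passed the test when replicate 1 of 100 days was left out (adjusted p = 0.0493) and when replicate 7 was left out (adjusted p = 0.00363). With any other single array left out it did not pass, and its limma adjusted p rose as high as 0.236. It was measured under 11 of the 13 other settings.

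A further pair of the higher genes are markers of immune cells. Lyz2, lysozyme of macrophages and other myeloid cells, ranged from 5.87 to 7.60 at 70 days (median 6.63) and from 6.86 to 8.86 at 100 days (median 8.43). All but 1 array of 100 days lay above all of 70 days, and the difference was 1.55 ± 0.39 (SE, adjusted p = 0.142). Lyz1 is a near-identical copy of Lyz2 in the mouse, and whether the probe reads both was not tested. Cma1, the chymase of mast cells, ranged from 4.91 to 5.55 at 70 days and from 5.61 to 6.49 at 100 days, with no overlap, and was detected on 4 of 8 and 7 of 7 arrays. It differed by 0.65 ± 0.16 (SE, adjusted p = 0.142).

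The lower genes included proteins of membrane recycling and of the cytoskeleton. Ehd1, an ATPase that drives the return of endocytosed membrane to the cell surface, ranged from 5.87 to 6.70 at 70 days (median 6.49) and from 5.32 to 6.03 at 100 days (median 5.78). A single array of 70 days lay among those of 100 days. The difference was -0.73 ± 0.15 (SE, adjusted p = 0.112). Abi3, a part of the complex that drives actin branching, ranged from 7.01 to 7.99 at 70 days and from 5.97 to 7.08 at 100 days and differed by -0.81 ± 0.17 (SE, adjusted p = 0.112). Replicate 4 of 70 days stood highest, and 6 of the 7 arrays of 100 days lay below all of 70 days. With single arrays left out the limma adjusted p of Abi3 ran from 0.0493 (without replicate 1 of 100 days) to 0.236. Ap5s1, a subunit of an adaptor of late endosomes, ranged from 8.73 to 9.28 at 70 days and from 8.44 to 8.68 at 100 days, with no overlap (difference -0.42 ± 0.09, SE, adjusted p = 0.112). Fam13b ranged from 6.42 to 6.82 at 70 days and from 5.91 to 6.35 at 100 days, also with no overlap. It differed by -0.43 ± 0.09 (SE, adjusted p = 0.112), and its second probe differed by -0.24.

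Other lower genes encode regulators, a transporter and proteins of the matrix. Crem, a regulator of transcription that responds to cyclic AMP, ranged from 5.24 to 6.55 at 70 days (median 6.07) and from 4.65 to 5.63 at 100 days (median 5.18). It was detected on 7 of 8 and on 4 of 7 arrays, and it differed by -0.82 ± 0.18 (SE, adjusted p = 0.127). The zinc finger genes Zfp282 and Zfp592 were lower by similar amounts, with differences of -0.41 ± 0.09 and -0.44 ± 0.11 (SE). Slc52a3, a transporter of riboflavin, ranged from 5.69 to 6.64 at 70 days and from 5.15 to 5.90 at 100 days, a difference of -0.70 ± 0.16 (SE, adjusted p = 0.127). Notch4, a Notch receptor of endothelium, differed by -0.75 ± 0.19 (SE, adjusted p = 0.142), but its second probe differed by -0.05. Ssc5d and Klk1b21 differed by -0.53 ± 0.13 and -0.55 ± 0.14 (SE) near the limit of detection, with 1 and 2 of 7 arrays detecting them at 100 days. Klk1b21 belongs to a family of closely related kallikreins, and whether its probe reads others of the family was not tested.

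**Figure D2:**
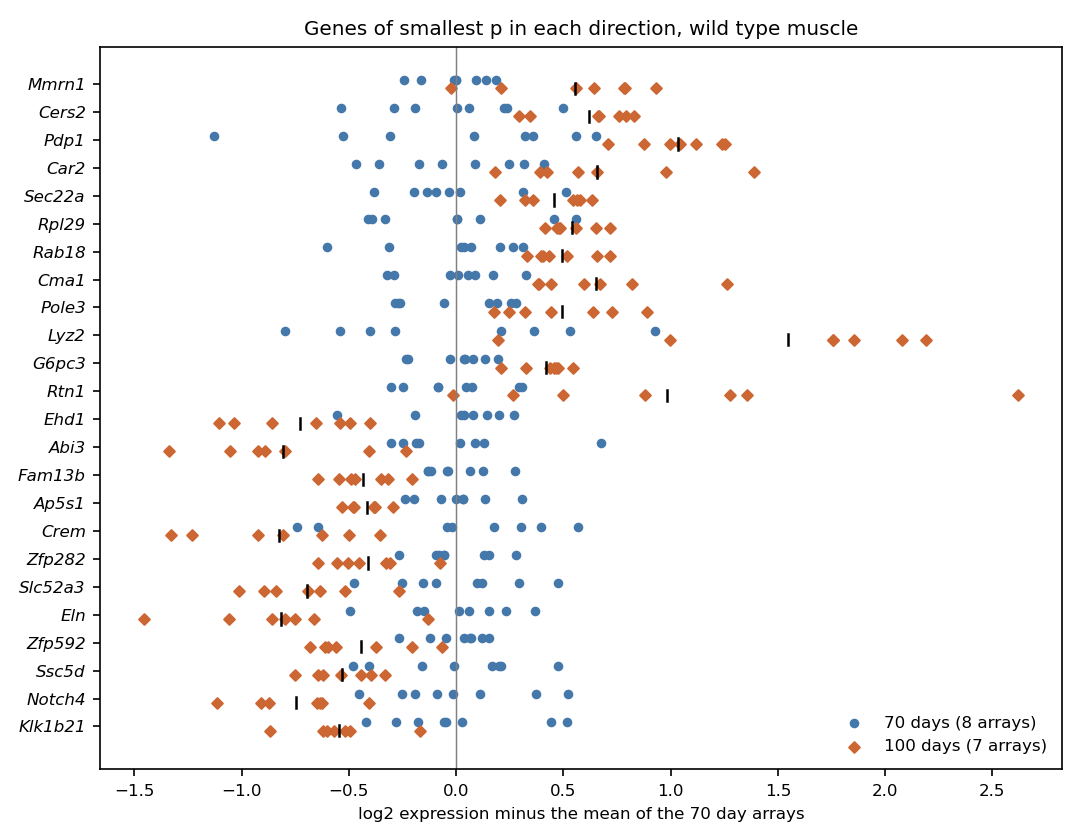
Log2 expression on each wild type muscle array minus the mean of the 70 day arrays, for the 12 genes of smallest p in each direction. Circles are the 8 arrays of 70 days, diamonds the 7 of 100 days, and the short line is the mean of 100 days. The diamonds and circles do not overlap for Pdp1, Rab18, Cma1, G6pc3, Fam13b and Ap5s1, and Lyz2 and Rtn1 have the widest spread at 100 days.

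Transcripts of extracellular matrix mostly had lower means at 100 days, and none passed the test. Most genes tested were also lower, as 40.3% of all genes lay above 0. Eln, elastin, the protein of elastic fibres, ranged from 6.81 to 7.68 at 70 days (median 7.34) and from 5.85 to 7.18 at 100 days (median 6.51). Only 1 array of 100 days reached the range of 70 days, and the difference was -0.82 ± 0.19 (SE, adjusted p = 0.13). The gene lists used from here on were chosen with earlier results of these data known. Of 12 collagen genes tested, 11 differed by less than 0, and the median difference was -0.24 against -0.04 over all genes. At an unadjusted p under 0.05 in limma, 3 were lower, against 6.62% of all genes, and none was higher. The list mean of collagens ranged from -0.27 to 0.35 on the arrays of 70 days and from -0.73 to 0.10 on those of 100 days, where replicates 3 and 7 were the lowest. The ages overlapped in this mean.

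The smallest p among the collagens belonged to the chains of collagen IV, the network of basement membranes that wraps each fibre and capillary. Col4a2 ranged from 11.47 to 12.48 at 70 days (median 11.96) and from 10.84 to 11.89 at 100 days (median 11.36), and 4 of 7 arrays lay below all of 70 days. Its difference was -0.50 ± 0.17 (SE, adjusted p = 0.222). Col4a1, which joins Col4a2 in the same trimer and was added here after its values were seen, as were the other genes below that are not first in their list, ranged from 10.29 to 11.59 at 70 days and from 10.01 to 10.95 at 100 days (difference -0.53 ± 0.19, SE, adjusted p = 0.241). In both genes 3 or 4 arrays of 100 days were below all of 70 days and the others were within the range of 70 days.

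Col4a1 and Col4a2 are known to lie head to head and to be transcribed in opposite directions from a shared promoter. It is shown because both transcripts had lower means in wild type muscle, though neither passed the test. In G93A-SOD1 muscle both had higher means at 100 days, by 0.17 for Col4a1 and 0.11 for Col4a2. The sequences are from RefSeq, assembly GRCm38.p6, and cover 250 bases before the start of transcription to 50 after it, at chr8:11312777-11313076 on the minus strand for Col4a1 and at chr8:11312555-11312854 on the plus strand for Col4a2, each written 5′ to 3′ on its own strand. Capitals mark, on either strand, matches to the CCAAT box (CCAAT), to the GC box (GGGCGG) and to the TATA box (TATAAA).
Col4a1: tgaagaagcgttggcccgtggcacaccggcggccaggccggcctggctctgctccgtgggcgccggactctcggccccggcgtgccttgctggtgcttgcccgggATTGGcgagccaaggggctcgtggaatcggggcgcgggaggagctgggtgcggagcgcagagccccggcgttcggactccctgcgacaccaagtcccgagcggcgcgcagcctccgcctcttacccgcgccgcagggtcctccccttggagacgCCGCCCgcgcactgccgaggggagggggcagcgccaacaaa
Col4a2: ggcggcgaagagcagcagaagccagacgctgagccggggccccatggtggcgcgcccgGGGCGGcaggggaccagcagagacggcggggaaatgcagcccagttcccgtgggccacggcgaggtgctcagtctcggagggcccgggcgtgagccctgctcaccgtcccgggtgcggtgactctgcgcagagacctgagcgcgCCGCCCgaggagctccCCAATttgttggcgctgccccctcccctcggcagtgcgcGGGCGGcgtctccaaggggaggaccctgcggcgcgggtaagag
The windows share 78 bases, identical when read on opposite strands, so a match there is counted in both. The starts lie 21 bases apart and the transcribed regions overlap there. Most bases before the start of each gene thus lie within the other gene. The window of Col4a1 held 1 CCAAT box and 1 GC box, that of Col4a2 held 1 CCAAT box and 3 GC boxes, and neither held a TATA box. Among 32851 promoter windows of the same length, 37.4% held a CCAAT box, 35.7% a GC box and 13.6% a TATA box. A match describes the letters only.

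In the remaining matrix genes, 16 of 24 differed by less than 0, where 40.3% of all genes lay above 0. Their median was -0.13 (-0.08 without replicate 5 of either age). At an unadjusted p under 0.05 in limma, 3 were lower, against 6.62% of all genes. These were Eln, Plod1 and P4ha1, and both of the latter encode enzymes that hydroxylate collagen chains. Plod1 ranged from 7.56 to 7.79 at 70 days and from 7.22 to 7.61 at 100 days and differed by -0.28 ± 0.08 (SE, adjusted p = 0.171), with 6 of 7 arrays below all of 70 days. Lum, lumican, a small proteoglycan made by fibroblasts, went the other way, with a difference of 0.81 ± 0.36 (SE, adjusted p = 0.377). The interstitial collagen gene Col1a1 varied widely at both ages, from 8.62 to 11.68 at 70 days and from 8.90 to 10.65 at 100 days, and differed by -0.37 ± 0.37 (SE).

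Markers of resident cells of connective tissue had positive medians, though none of their genes passed the test. All 5 mast cell genes tested differed by more than 0, with a median difference of 0.65 against -0.04 over all genes. At an unadjusted p under 0.05 in limma, 3 were higher, against 5.19% of all genes. Mcpt4, a mast cell protease, ranged from 4.66 to 5.79 at 70 days (median 5.00) and from 5.50 to 7.03 at 100 days (median 6.15), a difference of 1.04 ± 0.30 (SE, adjusted p = 0.178). It was detected on 3 of 8 arrays at 70 days and on all 7 at 100 days, and 5 arrays of 100 days lay above all of 70 days. Cpa3, carboxypeptidase A of mast cell granules, differed by 0.83 ± 0.28 (SE, adjusted p = 0.206), and Tpsb2, a tryptase, by 0.37 with overlapping ages. The mean of the list ranged from -0.25 to 0.54 at 70 days, where replicates 4 and 5 were high, and from 0.28 to 1.01 at 100 days. Fcer1a and Hdc, which also define mast cells, were detected on no wild type array.

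The macrophage list had 10 of 12 genes above 0 and a median of 0.24. At an unadjusted p under 0.05 in limma, 3 of its genes were higher, against 5.19% of all genes. That count was 1 without replicate 4 of 100 days and without replicates 2 or 6 of 70 days, and 5 without replicate 1 of 100 days or replicate 5 of 70 days, and the median ran from 0.17 to 0.37 with single arrays left out (highest without replicate 7 of 70 days). Besides Lyz2 the genes at such a p with all arrays kept were C1qb and C1qc, chains of the complement component C1q that macrophages make. C1qb ranged from 4.88 to 7.03 at 70 days and from 6.26 to 7.47 at 100 days and differed by 0.70 ± 0.30 (SE, adjusted p = 0.361). C1qa, the remaining chain of the same complex, differed by -0.06 ± 0.21 (SE), and Ctss, a lysosomal protease, by -0.25 ± 0.21 (SE), and these were the genes of the list below 0. The list mean ranged from -0.40 to 0.66 at 70 days and from -0.26 to 0.70 at 100 days, and replicates 5 and 7 of 70 days stood as high as most arrays of 100 days. Laptm5, the other of the brightest genes of the list, differed by 0.08. Cd163, Itgam and Itgb2 were detected on no array.

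Of 10 fibroblast genes, 9 were above 0 and the median difference was 0.33. Gsn, gelsolin, which severs actin filaments, led the list with a difference of 1.36 ± 0.48 (SE, adjusted p = 0.236). Its levels ranged from 5.74 to 8.33 at 70 days (median 6.53) and from 7.24 to 8.90 at 100 days (median 8.13), and 1 array of 100 days was above all of 70 days. Smoc2, a calcium-binding matrix protein and the brightest of the list, ranged from 10.01 to 10.49 at 70 days and from 10.34 to 10.82 at 100 days (difference 0.33 ± 0.15, SE, adjusted p = 0.377). Dpep1, a dipeptidase, differed by 0.59 ± 0.22 (SE, adjusted p = 0.27). Tendon genes, in contrast, varied between arrays far more than between ages, with list means from -1.27 to 1.31 at 70 days and from -1.05 to 0.66 at 100 days. The part of these cell types in the differences of single genes was not tested.

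Of the myelin genes, Mbp and Mag had the largest differences, and neither passed the test. Mbp, myelin basic protein, a main component of the sheath around axons, ranged from 6.97 to 8.54 at 70 days (median 7.88) and from 8.22 to 10.52 at 100 days (median 8.94). Of the arrays of 100 days 5 lay above all of 70 days, and the difference was 1.22 ± 0.37 (SE, adjusted p = 0.191). Mag, myelin-associated glycoprotein, ranged from 4.77 to 5.80 at 70 days and from 5.16 to 8.00 at 100 days (difference 0.83 ± 0.28, SE, adjusted p = 0.206). The other myelin genes of the list differed by 0.29 (Pmp22), 0.05 (Mal) and -0.08 (Cnp), with standard errors of 0.26, 0.14 and 0.12. The median of the Schwann cell and nerve list over 6 genes was 0.21, and it was 0.13 without replicate 6 of 70 days. Nefl, Nefm and S100b were among 6 of its 14 genes on the array that were detected on no wild type array. The list mean ranged from -0.31 to 0.37 at 70 days and from 0.06 to 0.86 at 100 days, with replicates 4 and 7 of 100 days highest.

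**Figure D3:**
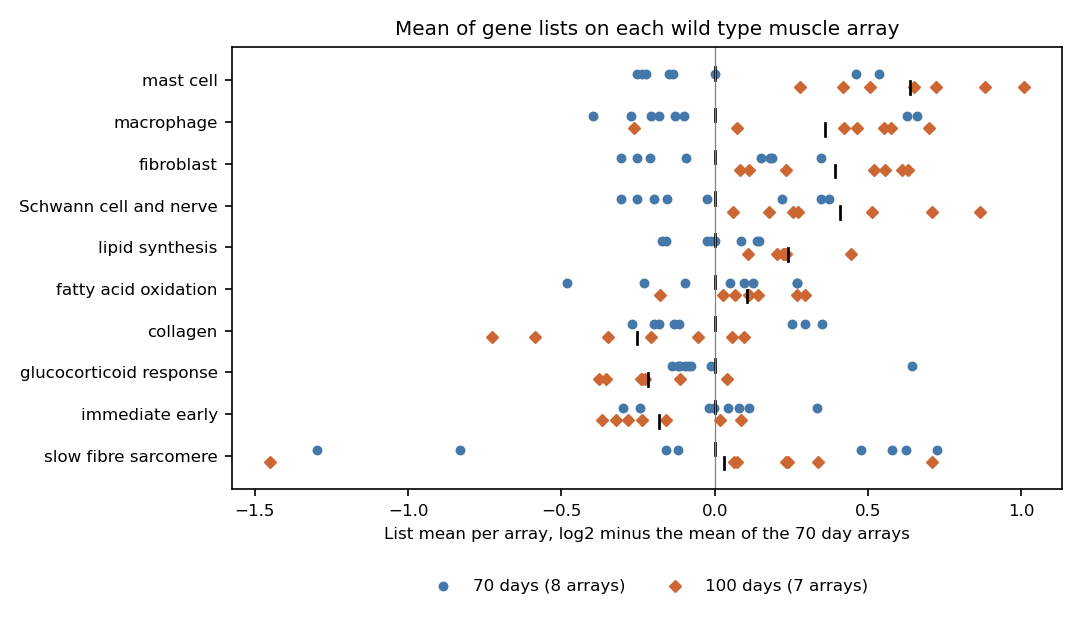
Mean of each of 10 gene lists on each wild type muscle array, as log2 minus the mean of the 70 day arrays (x axis). Circles are the 8 arrays of 70 days, diamonds the 7 arrays of 100 days, and short lines the means of each age. The ages overlap in all 10 lists, and the arrays are most widely spread in the slow fibre list.

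The lists of fatty acid use held genes with differences in both directions. In the list of fatty acid oxidation 13 of 22 genes were above 0 and the median was 0.09. Counted at an unadjusted p under 0.05 in limma, 5 were higher and 1 lower, against 5.19% and 6.62% of all genes. The median was 0.00 without replicate 5 of 70 days, 0.04 without replicate 6 of 70 days and 0.15 without replicate 3 of 100 days, and with single arrays left out 3 to 7 genes were higher (3 without replicate 5 of 70 days) and 0 to 2 lower. Acadl, the long-chain acyl-CoA dehydrogenase that starts a round of beta-oxidation, ranged from 6.81 to 8.62 at 70 days (median 7.96) and from 8.09 to 9.30 at 100 days (median 8.70), and differed by 0.83 ± 0.24 (SE, adjusted p = 0.171). The medium-chain enzyme Acadm differed by 0.46 ± 0.18 (SE, adjusted p = 0.317). Etfa and Etfdh, which pass the electrons of these dehydrogenases to the respiratory chain, differed by 0.33 ± 0.12 and 0.42 ± 0.16 (SE), and Eci1, an isomerase for unsaturated chains, by 0.38 ± 0.17 (SE). Pdk4, the kinase that turns off pyruvate dehydrogenase and so opposes Pdp1, ranged from 11.55 to 14.003 at 70 days (median 12.95) and from 11.66 to 12.71 at 100 days (median 12.09). It differed by -0.72 ± 0.33 (SE, adjusted p = 0.389), with the arrays of 100 days all inside the range of 70 days.

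Lipid synthesis had a median of 0.26, with 9 of 14 genes above 0. At an unadjusted p under 0.05 in limma, 3 were higher, against 5.19% of all genes, and none was lower. Agpat2, an acyltransferase of triglyceride and phospholipid synthesis, differed by 0.66 ± 0.21 (SE, adjusted p = 0.193) and was detected on 2 of 8 and 5 of 7 arrays. Scd2, a desaturase that makes monounsaturated fatty acids, ranged from 8.79 to 9.44 at 70 days and from 9.18 to 10.64 at 100 days and differed by 0.56 ± 0.18 (SE, adjusted p = 0.2). Fasn, fatty acid synthase, differed by 0.69 ± 0.32 (SE, adjusted p = 0.39). The adipocyte hormone Adipoq ranged from 5.10 to 8.00 at 70 days (median 6.02) and from 5.96 to 8.29 at 100 days (median 8.15), with a difference of 1.29 ± 0.55 (SE, adjusted p = 0.356). Its spread was wide at both ages. The adipocyte list as a whole had 4 of 8 genes above 0 and a median of 0.01, whose sign turned under 4 settings, and Lep and Plin1 were detected on no array.

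The contractile and respiratory genes of the fibres lay near the median of all genes. The fast fibre list had a median of 0.04 over 12 genes, with 0 at an unadjusted p under 0.05 in limma. Myh4, the myosin heavy chain of the fastest fibres, ranged from 12.19 to 13.62 at 70 days and from 12.50 to 13.99 at 100 days (difference 0.06 ± 0.50, SE). The slow fibre list had a median of -0.04, and its array means ran from -1.30 to 0.73 at 70 days and from -1.45 to 0.71 at 100 days, so that arrays within an age differed far more than the ages did. Oxidative phosphorylation had a median of 0.04 over 24 genes, and glycolysis and glycogen -0.03 over 17. Each of these 4 medians turned its sign under 1 of the other settings tried, the slow fibre list without the 3 arrays of most detected probes, the fast fibre and respiratory lists with median centring, and glycolysis with every probe. Within the list of skeletal muscle identity, 3 genes were lower and 1 higher at an unadjusted limma p under 0.05, against 6.62% and 5.19% of all genes. With single arrays left out 2 or 3 were lower and 0 to 2 higher. Cav3, the caveolin of muscle, led with a difference of -0.37 ± 0.12 (SE, adjusted p = 0.191), and Ttn, titin, differed by -0.26 ± 0.10 (SE, adjusted p = 0.265). Myot, myotilin of the Z disc, was the gene with the higher mean, by 0.85 ± 0.39 (SE).

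Stress and signalling genes were on average a little lower. Of 16 genes that respond to glucocorticoids, 14 were below 0, with a median of -0.23. At an unadjusted p under 0.05 in limma, 3 were lower, against 6.62% of all genes. These were Mt1, a metallothionein (-0.59 ± 0.26, SE), Ddit4, an inhibitor of mTORC1 (-0.61 ± 0.28, SE), and Klf15, a transcription factor of amino acid use (-0.33 ± 0.15, SE). Replicate 3 of 70 days stood apart in this list, with a mean of 0.64 where the other arrays of that age lay between -0.14 and -0.01. Without it the median was -0.14 and 0 of the 16 genes were lower at an unadjusted limma p under 0.05, as was the case without replicate 2 of 100 days, and 1 was without replicate 7 of 100 days. Among 15 immediate early genes 13 were below 0, with a median of -0.18 (-0.12 without replicate 5 of 70 days), led by Jund (-0.52 ± 0.23, SE, adjusted p = 0.374). The atrophy and autophagy list had 10 of 14 genes below 0 and a median of -0.12, where 40.3% of all genes lay above 0. Its first gene was Fbxo31, a part of an ubiquitin ligase, which ranged from 9.22 to 9.48 at 70 days and from 8.98 to 9.30 at 100 days (difference -0.26 ± 0.08, SE, adjusted p = 0.191).

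Growth, immune and clock lists showed small medians. The satellite cell list had 6 of 6 genes below 0 but a median of only -0.12, and cell proliferation had a median of -0.04. The insulin-like growth factor and myostatin list had a median of 0.02 and the imprinted growth genes 0.00, and their signs turned under 3 and 6 of the other settings. Antigen presentation had 11 of 14 genes above 0, with a median of 0.11, and was led by B2m, the light chain of class I molecules. Its median was 0.03 without replicate 8 of 70 days, 0.05 without replicate 4 of 100 days and 0.17 without replicate 7 of 70 days. B2m ranged from 10.75 to 11.19 at 70 days and from 11.29 to 11.77 at 100 days, so that every array of 100 days lay above every array of 70 days, with a difference of 0.49 ± 0.14 (SE, adjusted p = 0.171). The clock list had a median of 0.03, whose sign turned under 3 settings, and its first gene was Dbp, a transcription factor whose level swings with the time of day (0.63 ± 0.28, SE, adjusted p = 0.377). The hour at which tissue was taken is not among the labels. In the ribosome and proteasome lists the medians were 0.05 and 0.04, with signs that turned under 1 and 3 settings, although Rpl7 (0.37 ± 0.11, SE) and Psma1 (0.76 ± 0.22, SE) led them with adjusted p of 0.191 and 0.178.

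**Figure D4:**
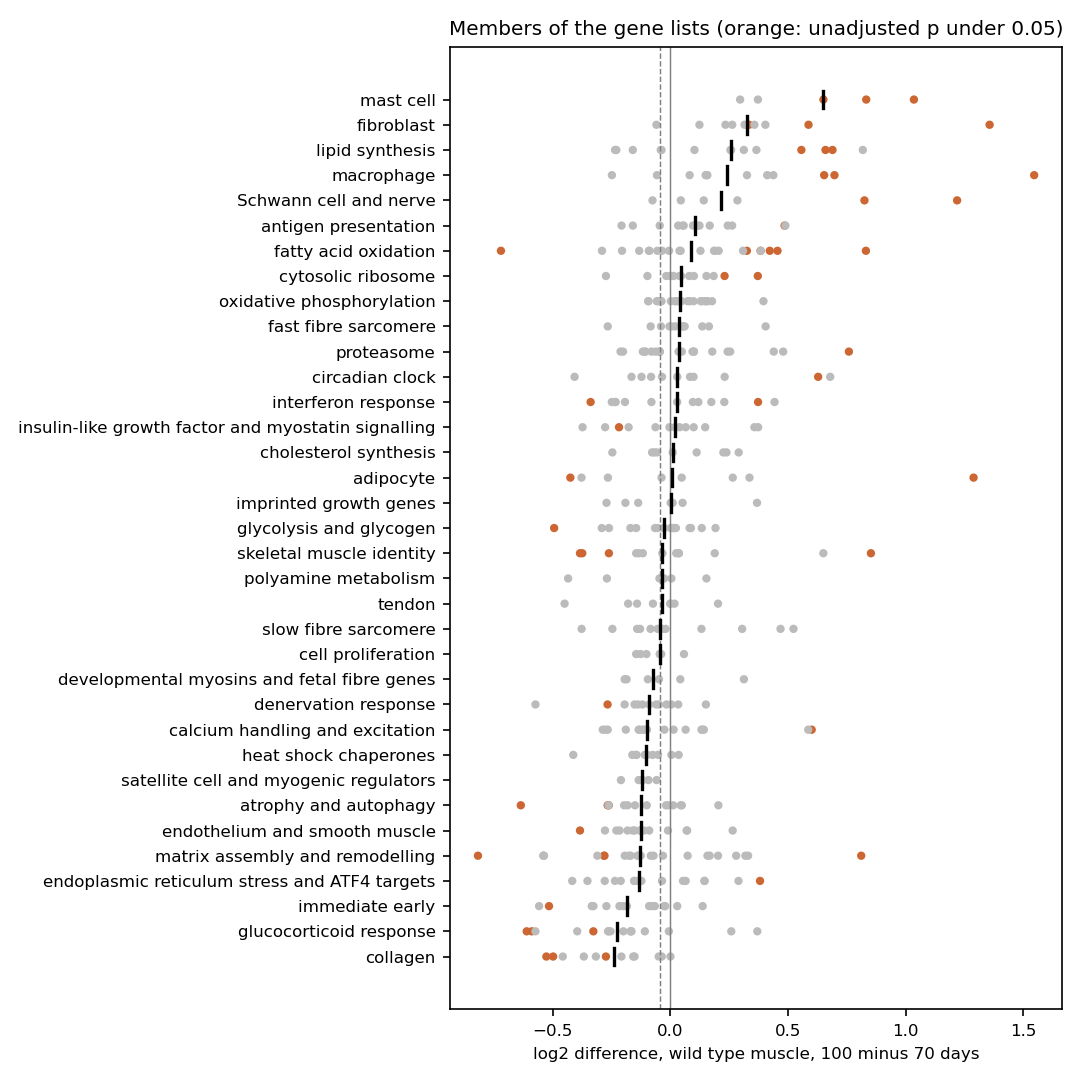
Differences of the members of 35 gene lists, wild type muscle at 100 minus 70 days on the log2 scale (x axis). Each point is a gene, orange where the unadjusted limma p is under 0.05, the short line is the median of the list, and the dashed line the median of all genes at -0.04. Mast cell genes have the highest median, 0.65, and collagens the lowest, -0.24.

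The same age comparison in G93A-SOD1 muscle, which uses other arrays that were normalized together with these, called 0 genes, with 671 (7.38%) at an unadjusted limma p under 0.05. Across all 9089 genes the age differences of the 2 genotypes had the same sign in 64.7% and correlated with r = 0.41. Genes share arrays and are not independent, so this is a description. Of the 12 higher genes 11 were also above 0 in G93A-SOD1 muscle, with a median of 0.27, and of the 12 lower genes 10 were below 0, with a median of -0.16. Among all 1074 genes with an unadjusted limma p under 0.05 in wild type, 902 (84.0%) had the same sign in both genotypes. The counts of the named genes lie near that share. Ehd1 and Lyz2 differed by similar amounts in both genotypes (-0.77 ± 0.15 and 1.64 ± 0.39 in G93A-SOD1, SE). Crem, Eln, Car2 and Slc52a3 differed little in G93A-SOD1 muscle, by -0.06, 0.02, -0.06 and 0.10. The named genes were picked for small p in wild type, so their sizes in the 2 genotypes cannot be compared evenly. The collagen median was 0.15 there and that of glucocorticoid response 0.06, and the mast cell, macrophage and fibroblast medians were 0.47, 0.50 and 0.36. Mbp differed by -0.17 in G93A-SOD1 muscle.

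The test of the difference between genotypes, the interaction of genotype and age, called 0 genes in limma, with 230 at an unadjusted p under 0.05 (2.53%) and a smallest adjusted p of 0.998. No gene was thus shown to differ between the genotypes in its age difference. The genes of smallest p were Lbp, a binding protein of bacterial lipopolysaccharide (0.86 in G93A-SOD1 and -0.21 in wild type), Arpc1b, a subunit of the Arp2/3 complex (0.47 and -0.14), and Yipf1, a membrane protein of the Golgi (0.26 and -0.44).

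**Figure D5:**
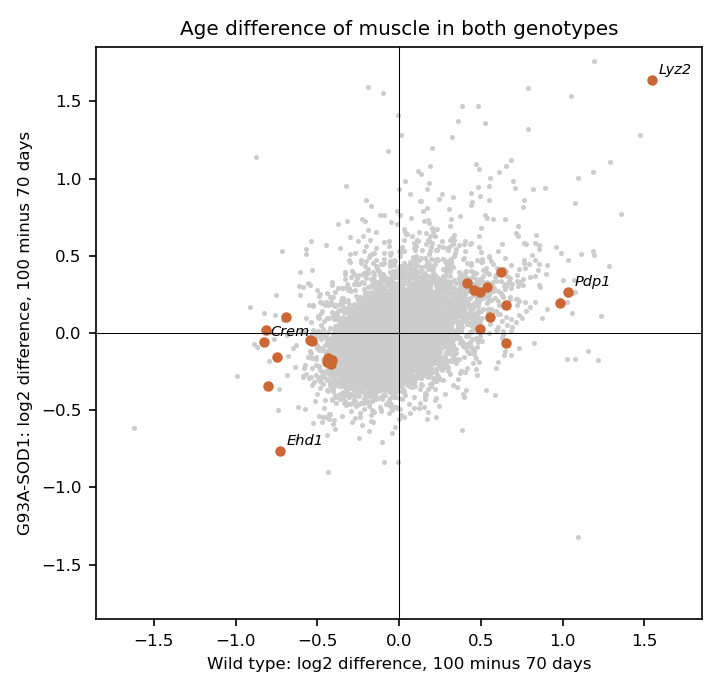
Age difference of each of 9089 genes, 100 minus 70 days on the log2 scale, in wild type muscle (x axis) and in G93A-SOD1 muscle (y axis). Orange points are the 24 genes of smallest p in wild type. Lyz2 lies at 1.55 and 1.64 and Ehd1 at -0.73 and -0.77, while Crem and Pdp1 lie nearer 0 in G93A-SOD1 muscle.

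Averaged over both genotypes, a comparison added after the data were seen, limma called 57 genes (0.627%), of which 33 were higher at 100 days (0.363%) and 24 lower (0.264%). Since it includes the wild type arrays it is not a separate test of them. On the log2 scale Ehd1 fell by 0.75 ± 0.11 (SE, adjusted p = 0.00105). Lyz2 rose by 1.59 ± 0.27 (SE, adjusted p = 0.0109), Rbm3, an RNA-binding protein induced by cold, by 0.81 ± 0.15 (SE, adjusted p = 0.0178), and B2m by 0.52 ± 0.10 (SE, adjusted p = 0.0216). Fbxo31 fell by 0.28 ± 0.06 (SE, adjusted p = 0.0254). The count was 0 when arrays were centred on their median instead of quantile normalized and 2 without the 3 arrays of most detected probes, and it ranged from 14 to 116 when single wild type arrays were left out.

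In the other tissues of wild type mice the same comparison called 0 genes. In spinal cord 289 of 10801 genes (2.68%) and in blood 816 of 8403 (9.71%) had an unadjusted limma p under 0.05. Of the 24 genes named in muscle, 20 were measured in spinal cord and 19 in blood. Their differences had the sign of muscle in 18 genes in spinal cord and in 6 genes in blood, and none was larger than 0.70 in size. The share of all genes with the same sign in muscle and these tissues was not computed, so these counts have no baseline. Lyz2 differed by 0.70 in spinal cord and by -0.29 in blood, and Ehd1 by -0.27 and 0.08. No test between tissues was run.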

How the data were processed

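The deposited table gave, per the file headers, a non-normalized signal intensity and a detection p-value for each probe on each of 92 arrays. The sources used here do not name the software, the background steps or the build behind them. The log2 values of the series matrix were deposited by the authors with their normalization not stated, and served as an alternative.

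Muscle arrays (30) were background-corrected and quantile normalized with neqc of limma 3.58.1 (offset 16, R 4.3.3). Probes detected (p under 0.05) on at least 7 arrays were kept, with each gene represented by its brightest probe, giving 9089 genes, 1218 of them probes without a symbol. Of 24613 probes 20984 had 1 symbol, 1 several and 3628 none. Omitted were 7 lines that name no probe (0.00539% of the signal).

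Limma fitted the 4 muscle groups together, with Benjamini-Hochberg adjustment at 0.05. Every gene p is from limma. The code was run on simulated data in which the noise was independent between genes. Genes here share arrays, so that run does not measure power in these data. Gene lists (40) are described by counts and medians. A list mean is the mean over members of log2 minus that of the 70 day arrays. The members and lists were chosen with earlier results of these data known. Named were the 12 genes of smallest p with a symbol in each direction, the first gene of each list, the 2 brightest genes of lists of other cells, and 3 interaction genes. Figures used matplotlib 3.10.9.

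Within-group pairs of arrays (49) held 0 identical pairs (Spearman rho 0.940 to 0.980).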

Additional observations from a re-analysis of the deposited data

Results flagged for a closer look

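Of 120 groups of arrays examined, 7 held an array whose gap to its nearest neighbour was large for the range of its group, and chance gives about 1 in 20. The gap is given as a share of the group's range. Replicate 3 of 70 days stood high in glucocorticoid response (0.837) and in atrophy and autophagy (0.602). Replicate 6 of 70 days stood high in interferon response (0.604), and replicate 4 of 70 days in Abi3 (0.558). Replicate 7 of 100 days stood low in the slow fibre sarcomere (0.701) and in heat shock chaperones (0.586). Replicate 6 of 100 days stood high in lipid synthesis (0.631).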

How the results depend on the processing

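For wild type muscle, the count of genes called was 36 with wild type arrays normalized and fitted alone, 48 with array weights, and 0 to 2 when single arrays were left out (2 without replicate 1 of 100 days, 1 without replicate 7). It was 0 under the other settings. The cause of these changes in the count was not tested. None of the 24 named genes changed sign under a setting that measured it. Of them 21 were measured with wild type arrays alone and 15 with genes detected on all 15 arrays. The settings reuse the arrays that picked these genes, so a kept sign is a description. With median centring the limma adjusted p of each was 0.987. Same-numbered arrays of the 2 ages did not pair (correlations of -0.35 to 0.08, 0 of 7 over 0.1), and the replicate block called 0 genes in limma, with 1353 at an unadjusted p under 0.05. With median centring 250 genes had such a p, and the median of all genes was -0.09. The interaction called 0 genes under every setting run, and its genes at an unadjusted p under 0.05, of which 146 were higher and 84 lower, were 50 higher and 12 lower with median centring. The average over both genotypes called 57 genes, and 110 without background correction, 0 with median centring, 33 with no detection filter, 108 with genes detected on all 15 arrays, 163 with the replicate block, 111 with the series matrix and 2 without the 3 arrays of most detected probes (14 to 116 with single arrays left out). In blood the replicate block gave 2 called genes. Medians of mast cell, macrophage, fibroblast, collagen and glucocorticoid lists kept their sign, from 0.15, 0.05, 0.14, -0.31 and -0.24 to 0.74, 0.44, 0.36, -0.11 and -0.08, with the sizes smallest under the series matrix values. A chip or position block was not run, as the headers used here give none. Dim genes, such as Mmrn1 and Rtn1, have only a bound at 70 days.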

Other observations

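Genes of vessels, excitation and protein folding were measured as well, and none passed the test. In the list of endothelium and smooth muscle 14 of 17 genes differed by less than 0, with a median of -0.13 on the log2 scale, and its brightest vessel gene, Acta2, the actin of smooth muscle, differed by -0.13. Calcium handling and excitation had 10 of 17 genes below 0, near the share of all genes, of which 40.3% lay above 0. Its median was -0.10, which turned its sign when every probe was kept. Against that median, Jph1, the junctophilin that holds the sarcoplasmic reticulum to the transverse tubules, ranged from 7.66 to 8.59 at 70 days (median 8.37) and from 8.40 to 9.40 at 100 days (median 8.69), and 5 of 7 arrays lay above all of 70 days. Its difference was 0.60 ± 0.24 (SE, limma adjusted p = 0.303). The list of endoplasmic reticulum stress and ATF4 targets had a median of -0.13 over 16 genes (-0.05 without replicate 4 of 100 days), while Herpud1, a protein of the disposal of misfolded proteins, differed by 0.38 ± 0.13 (SE, limma adjusted p = 0.21). On the arrays of 100 days Herpud1 lay between 9.45 and 9.64, and on those of 70 days between 8.56 and 9.61. Heat shock chaperones had 8 of 10 genes below 0 and a median of -0.10, which was -0.03 without replicate 7 of 100 days.

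Lists of denervation, interferon and blood cell genes held 0 genes that passed the limma test in wild type muscle, where the smallest adjusted p of all genes was 0.112 and 1074 genes had an unadjusted p under 0.05. The denervation list had a median of -0.09 over 13 genes and the developmental myosins and fetal fibre genes -0.07 over 6, where the medians of G93A-SOD1 muscle were 0.42 and 0.71. Chrng and Ncam1 are in both lists, so the lists are not separate observations. The interaction of genotype and age called no gene, so a difference between genotypes was not shown. The interferon list had a median of 0.03 over 13 genes, cholesterol synthesis 0.01 over 9, and polyamine metabolism -0.04 over 6. The sign of the developmental and interferon medians turned under 1 setting each and that of cholesterol synthesis under 2. Hba-a1, the alpha globin of red blood cells, differed by 0.10 and Alas2, which starts haem synthesis in them, by -0.15. Of 11 neutrophil genes on the array 8 were detected on no wild type array, as were 6 of 10 genes of T and natural killer cells, 4 of 7 of B and plasma cells and 8 of 12 of skin and hair. Camp of the neutrophil list differed by -0.12, Thy1 of the T cell list by 0.22 and Krt10 of the skin list by -0.14.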
